A study of Mus musculus with 28 samples.

Results

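The insulin-like growth factor (IGF) axis was described through 10 genes, chosen by symbol: the ligands Igf1 and Igf2, the receptors Igf1r and Igf2r, and the binding proteins Igfbp2, Igfbp3, Igfbp4, Igfbp5, Igfbp6 and Igfbp7. They are 10 of the 24062 genes counted in hippocampal RNA of female mice, and all 10 passed the filter on low counts, which left 16369 genes for testing. The study asked what drugs that remove senescent cells do in the 3xTg-AD mouse, and sequenced poly(A) RNA of 28 libraries in 7 groups of 4. The 3xTg groups received NAVI (ABT263, navitoclax, an inhibitor of anti-apoptotic BCL-2 family proteins), DQ (the kinase inhibitor dasatinib with the flavonoid quercetin), or a vehicle labelled VehN or VehD. The WT groups, labelled BL6129, received NAVI, DQ or a vehicle labelled only Veh. VehN was set against NAVI and VehD against DQ by the last letter of the label, and Veh served both drugs in WT. Doses, schedules and ages are not given in the labels used here. The 3xTg line carries transgenes driven by the neuronal Thy1 promoter, which all 16 libraries of that genotype share, and the WT libraries differ from them in more than 1 allele. Whether every library came from its own animal is not stated, so the p-values may partly rest on technical spread.

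IGF1 and IGF2 are small secreted hormones that signal for growth and survival through the tyrosine kinase receptor IGF1R. IGF2R, the cation-independent mannose 6-phosphate receptor, does not signal this way; it takes up IGF2 for degradation and sorts lysosomal enzymes. The IGF-binding proteins hold IGFs in the extracellular space and, depending on the protein and its proteolysis, withhold them from the receptor or deliver them to it; several are also named among the proteins that senescent cells secrete. In the adult brain Igf2 is made mainly by the choroid plexus and the meninges, whereas Igfbp5 and Igfbp4 are made by neurons and other cells of the parenchyma.

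With vehicle, 4 of the 10 genes differed between 3xTg and WT at an adjusted p under 0.05 (edgeR), as did 13.1% of all tested genes. Igfbp5 and Igf1 were higher and Igfbp4 and Igfbp6 were lower in 3xTg. The calls of Igf1 and of Igfbp6 were each lost under 5 of 26 alternative settings. The changes of Igfbp4 and Igfbp5 kept their direction and their call under all 26 alternative settings tried, so the sequences before their transcription starts are shown here, as the members that moved in opposite directions. Each run is the 250 bases before the RefSeq start, 5′ to 3′ on the gene's strand, from the RefSeq annotation of GRCm38.p6. Igfbp4 is at chr11:99040994-99041243 on the plus strand, and Igfbp5 at chr1:72874866-72875115 on the minus strand. Capitals mark a TATA-like hexamer, TATAAA or TTTAAA, searched on the gene's strand in the last 60 bases before the start.
Igfbp4: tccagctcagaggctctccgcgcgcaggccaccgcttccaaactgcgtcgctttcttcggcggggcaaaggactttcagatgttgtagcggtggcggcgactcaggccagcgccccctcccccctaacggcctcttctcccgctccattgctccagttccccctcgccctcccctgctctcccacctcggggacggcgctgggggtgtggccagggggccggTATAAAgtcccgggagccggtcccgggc
Igfbp5: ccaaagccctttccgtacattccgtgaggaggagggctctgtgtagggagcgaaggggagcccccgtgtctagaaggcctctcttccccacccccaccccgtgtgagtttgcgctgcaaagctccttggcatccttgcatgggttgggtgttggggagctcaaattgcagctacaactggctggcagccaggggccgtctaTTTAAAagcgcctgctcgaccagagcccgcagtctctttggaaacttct
The hexamer began 28 bases before the start in Igfbp4 and 49 bases before it in Igfbp5. In the same 60 bases, 2.87% of 32851 mouse promoters held TATAAA and 2.79% held TTTAAA. A GC box, GGGCGG on either strand, was in neither 250-base window, and 32.7% of all promoters held it. GC content was 69.2% in the Igfbp4 window and 58.8% in the Igfbp5 window. These matches describe the letters and say nothing of which factors bind there.

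**Figure D1:**
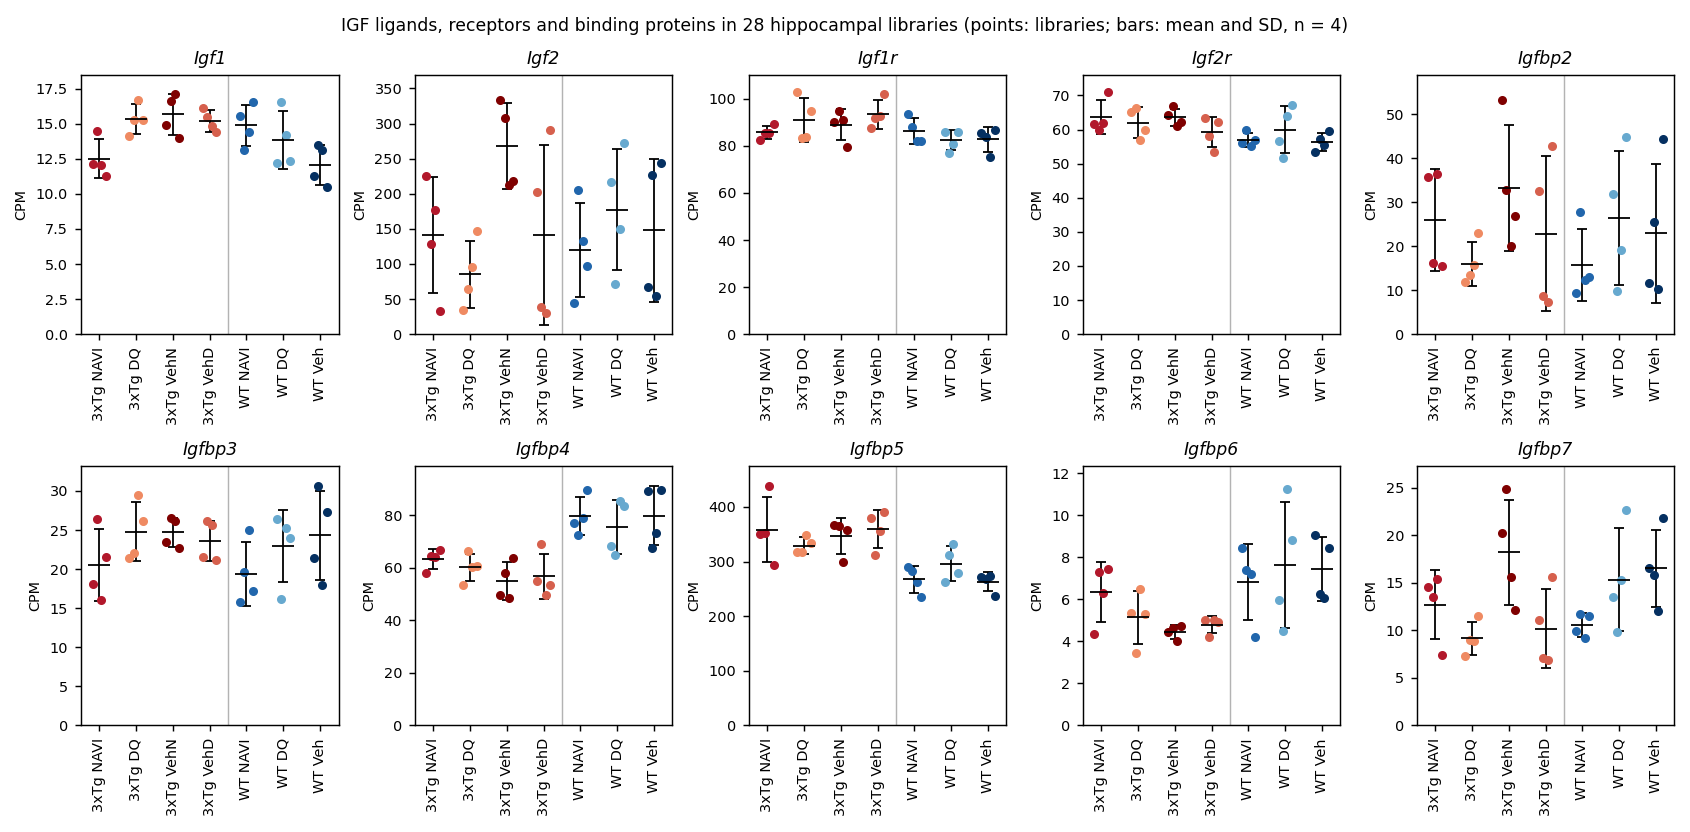
Expression (CPM, y axis, from 0) of each IGF gene in the 7 groups (x axis, 3xTg left of the grey line, WT right of it). Points are libraries, bars the mean and SD of 4 libraries. Igfbp4 sits lower and Igfbp5 higher in the 3xTg groups than in the WT groups, and Igf2 and Igfbp2 spread widely within groups.

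Levels are given as read counts scaled to library size and composition (CPM), and between genes only per kilobase of the longest annotated transcript. On that scale, by the median over 28 libraries, Igfbp5 was highest at 52.4 CPM per kb, followed by Igf2 at 31.4, Igfbp4 at 17.1, Igfbp2 at 15.0, Igfbp7 at 10.1 and Igfbp3 at 9.55 CPM per kb. The receptors followed, Igf1r at 7.53 and Igf2r at 6.73 CPM per kb, and then Igfbp6 at 5.08 and Igf1 at 2.04 CPM per kb. The ranges of neighbours in this order overlapped over the libraries, except those of Igfbp6 and Igf1. On this scale Igf1, although it is the ligand of Igf1r, had the lowest level of the 10 genes. The order depends on the transcript length used, and which transcripts were expressed was not tested. The lowest raw count of any member in any library was 150, in Igfbp6.

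Total counts ran from 32080861 to 54019519 per library. Markers of dentate granule cells and of CA1 and CA3 pyramidal cells, 8 genes each, all passed the filter on low counts. Each marker list was scored in a library by averaging, over its genes, the log2 CPM minus that gene's mean over the 28 libraries. The score of 10 genes of plaque-associated microglia lay between 0.31 and 1.19 in the 3xTg libraries. In the WT libraries it lay between -0.98 and -0.49, without overlap. This list was chosen with earlier results of these data known, so the split is no independent check. Markers of tissue next to the hippocampus varied within groups. The summed level of 14 choroid plexus genes ran from 2440 to 6118 CPM in 3xTg VehN libraries. It ran from 84.0 to 5485 CPM in 3xTg VehD libraries and from 96.5 to 4502 CPM in WT Veh libraries. None of these genes was at 0 in all 28 libraries.

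Among the ligands, Igf1, the growth factor made in brain by neurons and glia, was higher in 3xTg than in WT mice given vehicle. Its level was 14.9, 16.6, 17.1 and 14.0 CPM in 3xTg VehN libraries and 16.1, 15.5, 14.8 and 14.4 CPM in 3xTg VehD libraries, against 11.3, 13.4, 13.1 and 10.5 CPM in WT Veh libraries. All 8 of those 3xTg libraries lay above the 4 WT libraries. The log2 fold change of the mean of both 3xTg vehicle groups over WT was 0.35 (SE 0.09, edgeR quasi-likelihood test, adjusted p = 0.0159). In this comparison 13.1% of the 16369 genes were called at an adjusted p under 0.05, 5.68% higher and 7.40% lower in 3xTg, against the 4 of 10 IGF genes, and the ranges of the groups did not overlap for 5.71% of all genes, against 3 of the 10 (Igf1, Igfbp5 and Igfbp6). DESeq2 also called 4 of 10, against 17.3% of all genes. Run with sample quality weights here and below, limma-voom called 3 of 10, against 13.3%.

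The Igf1 call was lost without WT Veh replicate 1 (log2 fold change 0.32, adjusted p = 0.0629) or replicate 4 (0.29, adjusted p = 0.0817), and with VehD as the only 3xTg group (0.33, adjusted p = 0.0796). The mean of the 4 3xTg groups minus the mean of the 3 WT groups, a comparison added after seeing the data, was 0.11 for Igf1 and not called (adjusted p = 0.200). Over all its alternatives the adjusted p ran from 0.00345 to 0.200, in edgeR, DESeq2 or limma-voom. Igf1 has the lowest transcript GC content of the 10 genes, 38.0%, and the libraries differed in how their counts depended on GC content. This dependence was summarised as the slope of a library's log2 CPM, centred on the gene's mean, per SD of gene GC content. Its group mean was 0.087 in 3xTg NAVI, -0.027 in 3xTg DQ, -0.077 in 3xTg VehN and -0.062 in 3xTg VehD. In WT it was -0.039 with NAVI, 0.061 with DQ and 0.057 with Veh. The slopes overlapped between 3xTg VehN (-0.211 to 0.068) and WT Veh (-0.039 to 0.153). With the slope as a covariate, a setting chosen after seeing the data, the Igf1 difference with vehicle was 0.22 (adjusted p = 0.0884, edgeR). Because the slope also varied with group, its part in the Igf1 difference cannot be told apart from that of genotype.

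Igf2, an imprinted growth factor best known from fetal growth, varied more within groups than between genotypes. It was at 333, 308, 213 and 218 CPM in 3xTg VehN libraries and at 203, 38.6, 29.8 and 291 CPM in 3xTg VehD libraries, against 66.5, 226, 53.7 and 244 CPM in WT Veh libraries. The log2 fold change was 0.39, with a 95% interval from -0.78 to 1.57 (adjusted p = 0.660, edgeR). Over all libraries Igf2 ranged 11.2-fold and its within-group SD of 1.08 on the log2 scale was above that of 98.8% of tested genes. Its counts are uncertain in one more way: exons of Igf2os lie on the opposite strand of the same locus, and how strand was set in counting is not known here.

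Igfbp2, a binding protein of cerebrospinal fluid and choroid plexus, showed the same kind of spread, with a 7.21-fold range and a within-group SD of 0.85, above that of 97.4% of genes. In the 14 libraries with a choroid plexus score above 0, Igfbp2 lay between 20.1 and 53.3 CPM, and in the other 14 between 7.40 and 19.2 CPM, without overlap. Igf2 lay between 146 and 333 CPM in the 14 above 0 and between 29.8 and 150.4 CPM in the others, overlapping in that small interval alone. The libraries above 0 were 2 of 3xTg NAVI, 1 of 3xTg DQ, 4 of 3xTg VehN, 2 of 3xTg VehD, 1 of WT NAVI, 2 of WT DQ and 2 of WT Veh. The 3 genes most like Igf2 over the 28 libraries were Lepr (Pearson r of log2 CPM 0.98), Slc16a12 (0.96) and Slc13a4 (0.96), the last one of the leptomeninges markers; those most like Igfbp2 were Col18a1 (0.97), Sema3b (0.95) and Angptl2 (0.95). These correlations describe libraries that share tissue composition and carry no test.

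**Figure D2:**
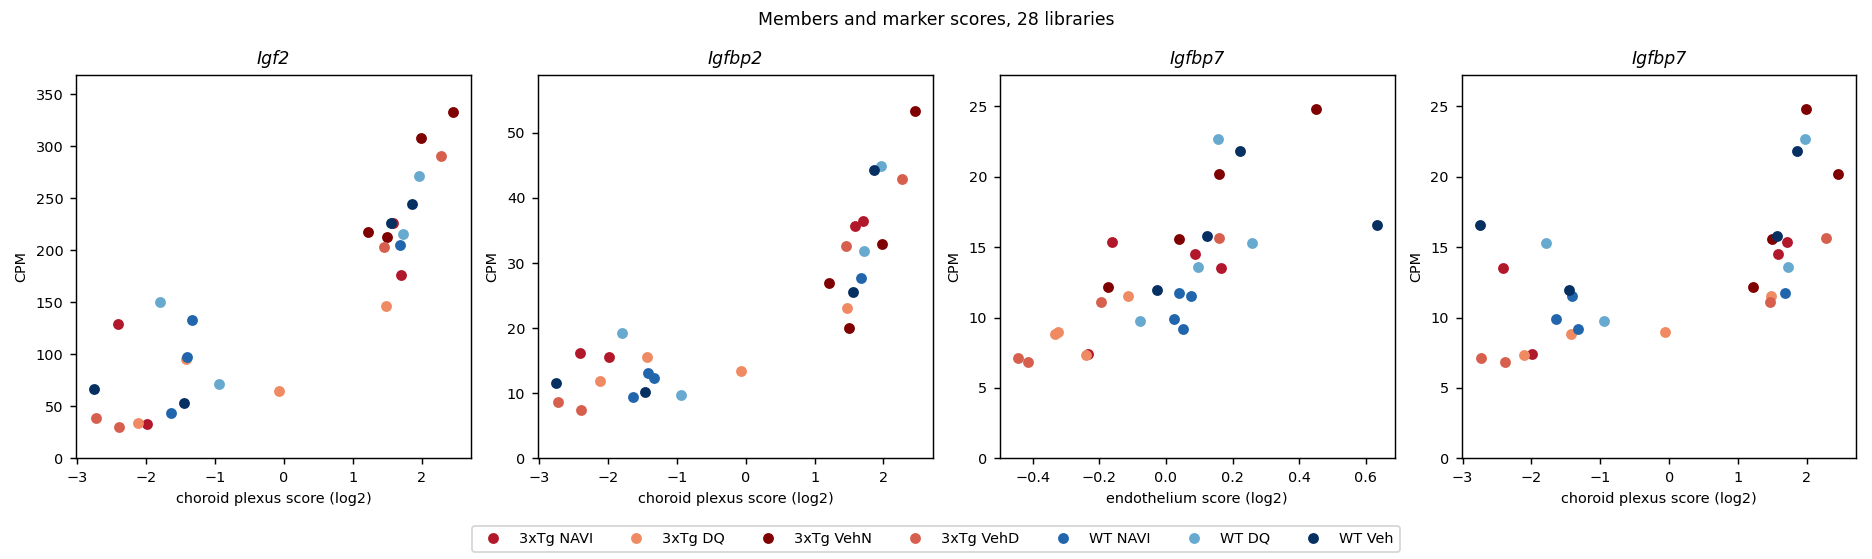
CPM (y axis, from 0) against a marker score (x axis, mean log2 CPM relative to all libraries) for Igf2, Igfbp2 and Igfbp7, 1 point per library, coloured by group. Every library with a choroid plexus score above 0 had more Igfbp2 (20.1 to 53.3 CPM) than every other library (7.40 to 19.2 CPM), and both sets hold libraries of all 7 groups except that no 3xTg VehN library is in the lower set.

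Neither receptor was called between genotypes with vehicle. Igf1r was at 90.3, 95.03, 91.0 and 79.6 CPM in 3xTg VehN and at 87.4, 91.8, 92.8 and 102 CPM in 3xTg VehD, against 85.4, 83.9, 75.1 and 86.8 CPM in WT Veh. The groups overlapped, and the log2 fold change was 0.14 (95% interval 0.02 to 0.27, adjusted p = 0.113, edgeR). Igf2r was at 64.1, 66.8, 61.1 and 62.1 CPM in 3xTg VehN and at 63.3, 58.0, 53.5 and 62.1 CPM in 3xTg VehD, against 53.5, 57.3, 55.4 and 59.5 CPM in WT Veh, a log2 fold change of 0.12 (adjusted p = 0.185). With the GC slope as a covariate Igf2r was called, at 0.22 (adjusted p = 0.0155). These were the steadiest members: over 28 libraries each ranged 1.37-fold.

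Igfbp5, which binds extracellular matrix and is the most abundant of the binding proteins here per kilobase, was higher in 3xTg. It was at 367, 365, 299 and 357 CPM in 3xTg VehN and at 379.7, 312, 356 and 391 CPM in 3xTg VehD, against 273, 268, 274 and 237 CPM in WT Veh. All 8 of those 3xTg libraries were above the 4 WT libraries, and the log2 fold change was 0.43 (SE 0.09, a 1.34-fold difference, adjusted p = 0.00310, edgeR). With NAVI it was at 349.7, 353, 438 and 293 CPM in 3xTg against 290.4, 282, 262 and 235 CPM in WT, again without overlap, with a log2 fold change of 0.42 (SE 0.10, adjusted p = 0.0127). With DQ it was at 318, 317, 349.5 and 333 CPM in 3xTg against 262, 312, 332 and 279 CPM in WT; those groups overlapped and the log2 fold change of 0.15 (SE 0.10) was not called (adjusted p = 0.429).

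Taking all treatments, 11 of 16 3xTg libraries had more Igfbp5 than the highest of 12 WT libraries, 332 CPM, and 16 of 16 had more than the WT median, 273 CPM. The mean of the 4 3xTg groups minus the mean of the 3 WT groups, a comparison added after seeing the data, was 0.34 (adjusted p = 6.77e-05, edgeR; 17.4% of all genes were called). In the NAVI comparison, where Igfbp5 was the 1 IGF gene of 10 called, against 5.98% of all genes, the call was lost when only the 8 libraries compared were fitted (0.44, adjusted p = 0.0713), without 3xTg NAVI replicate 3 (0.31, adjusted p = 0.0848), and without WT NAVI replicate 4 (0.37, adjusted p = 0.0543).

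Microglial and astrocyte markers moved with the genotype beside Igfbp5. With vehicle, 7 of 10 plaque-associated microglia genes were higher in 3xTg and 0 lower, among them Cst7 by 3.91 and Clec7a by 2.80 on the log2 scale, and 4 of 10 astrocyte genes were higher, Gfap by 1.31. With NAVI 7 of the 10 plaque-associated genes and 6 of 10 general microglia genes were higher in 3xTg, and with DQ 4 and 1 were. Among all genes, 5.68% were called higher with vehicle. In either direction, 5.98% were called with NAVI and 3.05% with DQ. The genes most like Igfbp5 over the 28 libraries were C3ar1, the receptor for complement fragment C3a (r = 0.90), Plau, the urokinase plasminogen activator (0.90), and Prdx6, a peroxiredoxin (0.88); with group means removed the values were 0.73, 0.84 and 0.78. Of the 50 genes most like Igfbp5, 3 were plaque-associated microglia markers. Their part in the Igfbp5 difference was not tested, and in bulk RNA a change in the number of cells and a change in the RNA per cell cannot be told apart.

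**Figure D3:**
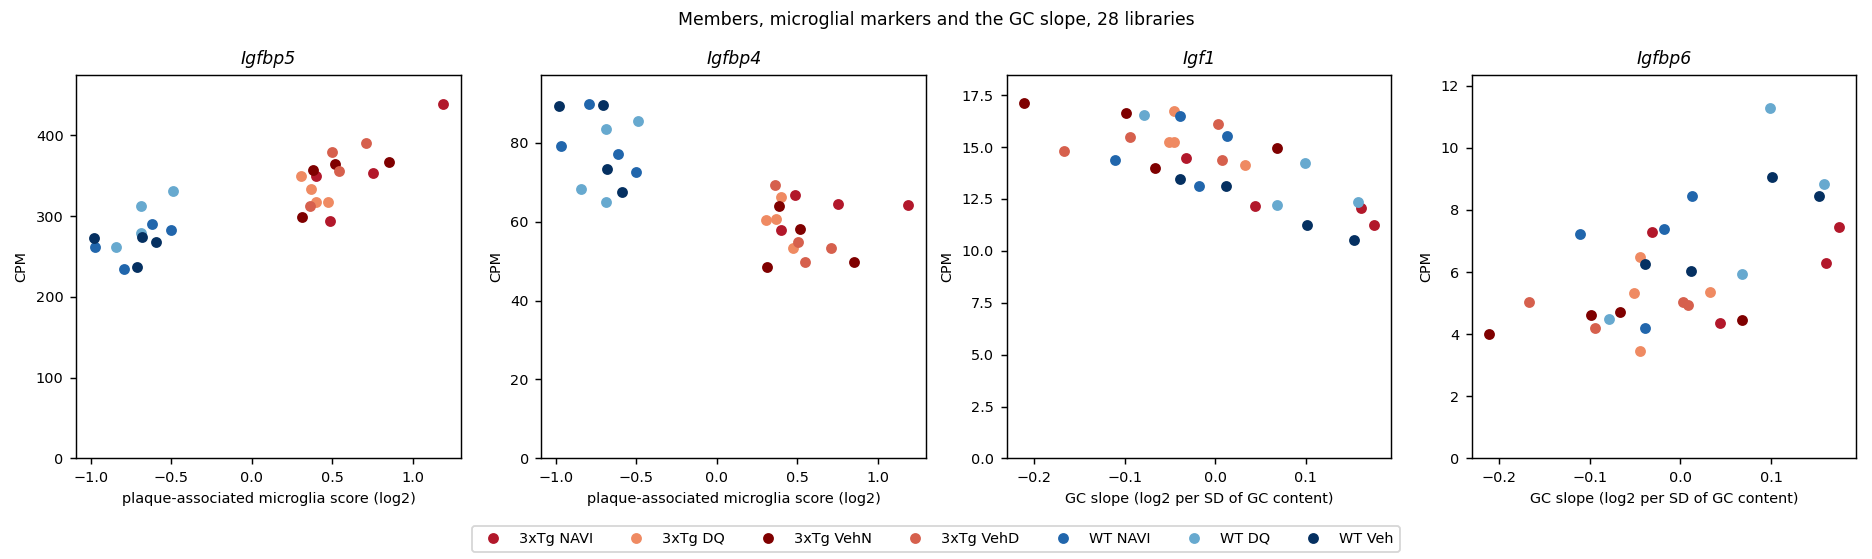
CPM (y axis, from 0) of Igfbp5 and Igfbp4 against the score of plaque-associated microglia genes, and of Igf1 and Igfbp6 against each library's GC slope (x axes), 1 point per library. The microglial score splits the 3xTg libraries, at 0.31 or more, from the WT libraries, at -0.49 or less; the 4 libraries with the most positive slopes, 0.153 to 0.175, hold Igf1 between 10.5 and 12.4 CPM, and the library with the most negative slope, -0.211, holds the most, 17.1 CPM.

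Igfbp4, a binding protein that mostly withholds IGFs until the protease PAPP-A cleaves it, was lower in 3xTg. It was at 49.7, 58.2, 48.4 and 63.8 CPM in 3xTg VehN and at 55.0, 69.3, 49.8 and 53.4 CPM in 3xTg VehD, against 89.2, 67.6, 73.4 and 89.5 CPM in WT Veh. A single 3xTg library, VehD replicate 2 at 69.3 CPM, overlapped the WT range. The log2 fold change was -0.51 (SE 0.10, 0.70-fold, adjusted p = 0.00141, edgeR), and under the 26 alternatives it ran from -0.59 to -0.41 and stayed called.

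With NAVI, Igfbp4 was at 58.0, 64.3, 64.3 and 66.6 CPM in 3xTg against 77.2, 72.5, 79.0 and 89.7 CPM in WT, without overlap, but the log2 fold change of -0.33 (SE 0.11) had an adjusted p of 0.0781. Igf2r and Igfbp5 also did not overlap in that comparison, 3 of 10 in all, against 14.6% of all genes. With DQ, Igfbp4 was at 53.4, 66.3, 60.4 and 60.6 CPM in 3xTg against 68.2, 65.0, 85.5 and 83.5 CPM in WT, with a log2 fold change of -0.33 (SE 0.11, adjusted p = 0.131). Over all treatments 13 of 16 3xTg libraries had less Igfbp4 than the lowest of 12 WT libraries, 65.0 CPM, and the comparison of all groups, added after seeing the data, gave -0.41 (adjusted p = 2.58e-05). The genes most like Igfbp4 were Fam219a (r = 0.85), Slc36a1 (0.84) and Ddn (0.84), the last encoding dendrin, a protein of dendrites; with group means removed the values were 0.52, 0.63 and 0.64.

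Igfbp6, which prefers IGF2 as its ligand, was the least abundant binding protein per kilobase and was lower in 3xTg with vehicle. It was at 4.45, 4.63, 3.998 and 4.71 CPM in 3xTg VehN and at 5.03, 4.21, 5.03 and 4.93 CPM in 3xTg VehD, against 9.07, 6.26, 6.05 and 8.46 CPM in WT Veh. No 3xTg library reached the lowest WT library, and the log2 fold change was -0.69 (SE 0.20, 0.62-fold, adjusted p = 0.0266, edgeR). The call was lost with limma-voom (-0.61, adjusted p = 0.0689), without WT Veh replicate 1 (-0.58, adjusted p = 0.112) or replicate 4 (-0.62, adjusted p = 0.104), with VehD as the only 3xTg group (-0.64, adjusted p = 0.129), and with the GC slope as a covariate (-0.46, adjusted p = 0.189). With NAVI its log2 fold change was -0.10 (SE 0.24, adjusted p = 0.798) and with DQ -0.57 (SE 0.24, adjusted p = 0.213).

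Beside the lower Igfbp4 and Igfbp6, 3 of 10 interneuron genes were lower in 3xTg with vehicle, Sst by a log2 change of -0.40, Npy of -0.39 and Cck of -0.27, and 3 of 12 endothelial genes, Cldn5 at -0.89, Esam at -0.47 and Ly6c1 at -0.56. Of the principal neuron markers, 2 of 8 dentate granule genes were called lower as well, C1ql2 at -0.89 and Lct at -0.54. The signs of that list were mixed: 4 of the 8 had a positive log2 fold change, and the median was -0.085. Of the CA1 and CA3 pyramidal genes 1 of 8 was called lower, Wfs1 at -0.57, and 1 of 8 had a positive log2 fold change. In either list 0 were called higher. Among all genes, 7.40% were called lower in this comparison. The summed level of the interneuron list was 1136 to 1231 CPM in 3xTg VehN and 1141 to 1273 CPM in 3xTg VehD, against 1196 to 1402 CPM in WT Veh. That of the endothelial list was 339 to 524 CPM in 3xTg VehN and 278 to 408 CPM in 3xTg VehD, against 362 to 548 CPM in WT Veh. Of the 50 genes most like Igfbp4, 0 were in the interneuron, endothelial, dentate granule or pyramidal lists, and of the 50 most like Igfbp6 also 0. The part of these cell types in the results for both genes was not tested.

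Igfbp3, the main carrier of IGFs in serum, was not called with vehicle: the log2 fold change was -0.01 with a 95% interval from -0.32 to 0.30, and its levels ran from 16.03 to 29.5 CPM over the 3xTg libraries and from 15.8 to 30.6 CPM over the WT libraries. Igfbp7, which binds IGFs weakly and is abundant in vessel walls, was at 20.2, 24.8, 15.6 and 12.2 CPM in 3xTg VehN and at 11.1, 7.12, 6.87 and 15.6 CPM in 3xTg VehD, against 16.6, 15.8, 11.99 and 21.8 CPM in WT Veh. Between the 3xTg vehicle groups, which overlapped, the log2 fold change of VehN over VehD was 0.84 and was not called (adjusted p = 0.866, edgeR), and the difference from WT was -0.28 (SE 0.23, adjusted p = 0.420). It was called, at -0.57 (adjusted p = 0.0354), with choroid plexus, leptomeninges and thalamus scores as covariates, and at -0.78 (adjusted p = 0.0210) without the 8 libraries with a thalamus score above 0.3, the second setting chosen after seeing the data. Exons of Polr2b overlap those of Igfbp7 on the opposite strand, so its counts carry the same uncertainty as those of Igf2.

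**Figure D4:**
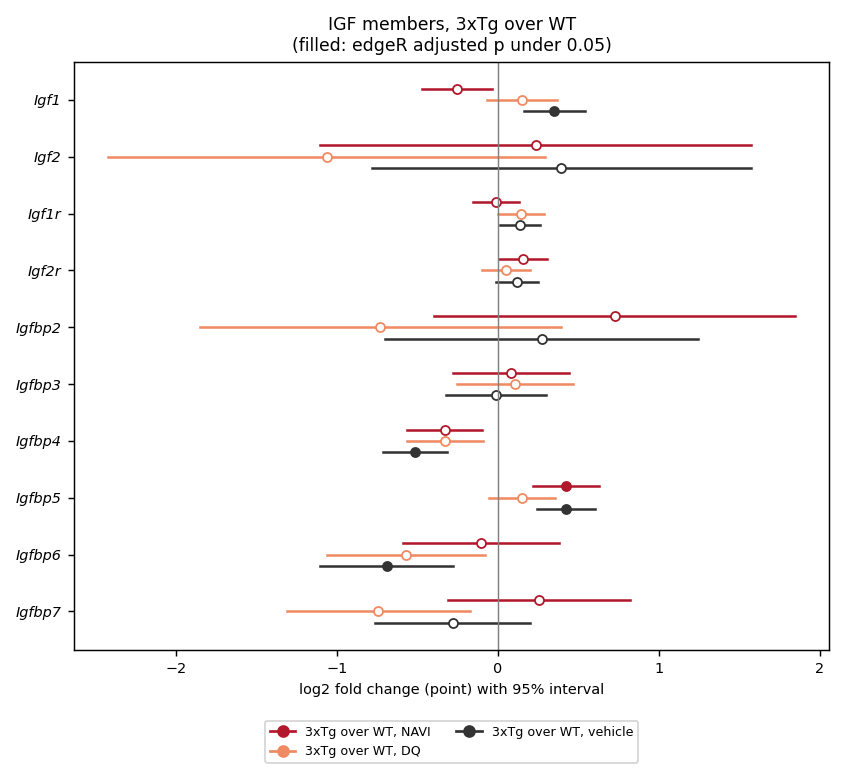
Log2 fold change of 3xTg over WT (x axis) for each IGF gene, under NAVI, DQ and vehicle, with 95% intervals from the edgeR fit; filled points had an adjusted p under 0.05. With vehicle Igf1 (0.35), Igfbp4 (-0.51), Igfbp5 (0.43) and Igfbp6 (-0.69) are filled, with NAVI Igfbp5 (0.42), and with DQ none.

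With DQ, 0 of the 10 genes were called between genotypes by edgeR, against 3.05% of all genes; 4 had an unadjusted p under 0.05 (Igf1r, Igfbp4, Igfbp6 and Igfbp7), against 17.4% of all genes. DESeq2 called 0 of 10, against 4.49% of all genes, and limma-voom called 1, Igfbp4 (-0.35, adjusted p = 0.0271), against 9.44%. The median log2 fold change of the 10 genes was 0.12 with NAVI, -0.14 with DQ and 0.13 with vehicle, against 0.002, -0.003 and 0.006 for all tested genes in the same order. Igfbp7 was at 7.35, 9.01, 8.84 and 11.5 CPM in 3xTg DQ against 13.6, 9.78, 15.3 and 22.7 CPM in WT DQ, a log2 fold change of -0.74 (SE 0.28, adjusted p = 0.160).

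In 3xTg mice, NAVI over VehN changed 0 of the 10 genes by edgeR, which called 0% of all genes in this comparison. At an unadjusted p under 0.05 by edgeR there were 2 of 10, Igf1 and Igfbp6, against 29.1% of all genes. DESeq2 called 1 (Igf1), against 15.9% of the 12559 genes to which it gave an adjusted p. By limma-voom 0 were called, against 5.05% of all genes. Igf1 was at 12.1, 14.5, 12.1 and 11.3 CPM in 3xTg NAVI against 14.9, 16.6, 17.1 and 14.0 CPM in 3xTg VehN; the groups overlapped through 3xTg NAVI replicate 2. The log2 fold change was -0.33 (SE 0.11, adjusted p = 0.0690, edgeR), and it was called with DESeq2 (-0.32, adjusted p = 0.0296), against the mean of both 3xTg vehicle groups (-0.30, adjusted p = 0.0436), without 3xTg NAVI replicate 2 (-0.40, adjusted p = 0.0217) and without 3xTg VehN replicate 1 (-0.33, adjusted p = 0.0389). With the GC slope as a covariate it was -0.15 (adjusted p = 0.621).

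Igfbp6 was at 4.37, 7.30, 6.30 and 7.44 CPM in 3xTg NAVI against 4.45, 4.63, 3.998 and 4.71 CPM in 3xTg VehN, a log2 fold change of 0.52 (SE 0.24, adjusted p = 0.154). Igf2 was at 226, 129, 177 and 32.8 CPM in 3xTg NAVI against 333, 308, 213 and 218 CPM in 3xTg VehN, a log2 fold change of -0.93 with a 95% interval from -2.27 to 0.42. All 14 choroid plexus genes were also lower there, with a median log2 fold change of -1.14 and 0 of 14 called; their part in the Igf2 value was not tested.

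In WT mice NAVI changed 0 of 10 by edgeR, DESeq2 and limma-voom, against 0% of all genes by edgeR and 0.0183% by each of the other tools, with 2 of 10 at an unadjusted p under 0.05 against 7.74% of all genes. Igf1 was at 15.5, 13.1, 14.4 and 16.5 CPM in WT NAVI against 11.3, 13.4, 13.1 and 10.5 CPM in WT Veh, a log2 fold change of 0.30 (SE 0.11, adjusted p = 0.614). Igfbp7 was at 9.93, 11.8, 9.16 and 11.5 CPM in WT NAVI against 16.6, 15.8, 11.99 and 21.8 CPM in WT Veh, without overlap, as for 4.57% of all genes, with a log2 fold change of -0.64 (SE 0.27, adjusted p = 0.614).

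The effect of NAVI on Igf1 differed between the genotypes: the effect in 3xTg minus the effect in WT was -0.63 on the log2 scale (SE 0.15, adjusted p = 0.0427, edgeR), the 1 IGF gene of 10 called, against 8.13% of all genes. The 3xTg effect (-0.33) was negative and the WT effect (0.30) positive, and neither was called alone. Of the 7 groups, 3xTg VehN had the highest mean Igf1 (15.7 ± 1.45 CPM, SD, n = 4) and WT Veh the lowest (12.1 ± 1.43 CPM, SD, n = 4). With the GC slope as a covariate the difference was -0.35 with an adjusted p of 0.729, and no gene of the table was called. It was also not called without the low count filter (adjusted p = 0.0511), with only the libraries compared (adjusted p = 0.101), or without any of 9 single libraries: 3xTg NAVI replicates 3 and 4, 3xTg VehN replicates 2 and 3, WT NAVI replicates 2, 3 and 4, and WT Veh replicates 1 and 4 (-0.68 to -0.56, adjusted p from 0.0564 to 0.125). The vehicles differ in label between the genotypes and cannot be told apart from this difference.

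DQ changed 0 of 10 genes in 3xTg and 0 of 10 in WT by edgeR, DESeq2 and limma-voom, with 0 at an unadjusted p under 0.05 in both. Of all genes, 1.83% in 3xTg and 3.38% in WT had such a p. In 3xTg 0% of all genes were called by each tool, and in WT 0.00611% by edgeR, 0.0244% by DESeq2 and 0% by limma-voom. The 95% intervals were narrow for the receptors, from -0.18 to 0.11 for Igf1r in 3xTg, and wide for Igf2, from -2.08 to 0.62 in 3xTg. The effect of DQ differed between genotypes for 0 of 10 genes by each tool, against 0% of all genes by edgeR and limma-voom and 0.00611% by DESeq2. Igfbp5 alone had an unadjusted p under 0.05 there (-0.30, adjusted p = 0.9999, edgeR), as did 2.85% of all genes. Between VehN and VehD in 3xTg 0 of 10 were called by each tool, against 0% of all genes by edgeR and limma-voom and 0.0122% by DESeq2, and 1 of 10, Igfbp7, had an unadjusted p under 0.05, against 4.93% of all genes.

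**Figure D5:**
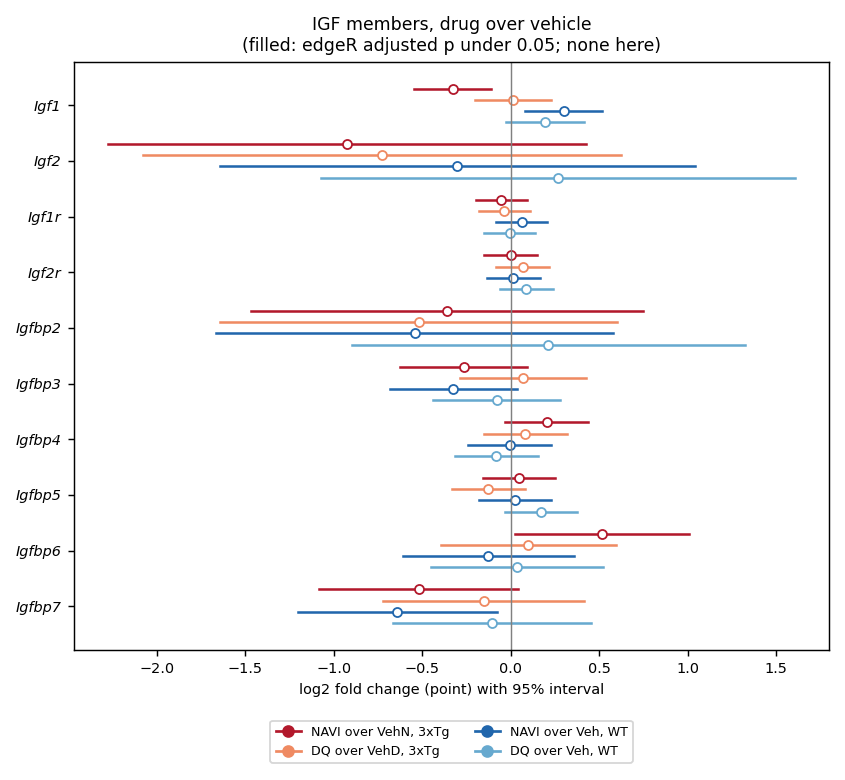
Log2 fold change of drug over vehicle (x axis) for each IGF gene in 3xTg and WT, with 95% intervals from the edgeR fit. All points are open, since no IGF gene had an adjusted p under 0.05; the Igf1 points for NAVI lie on opposite sides of 0 in 3xTg (-0.33) and WT (0.30).

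The genes most like the other members were, in order of Pearson r over the 28 libraries and among 13979 candidates, Arcn1 (0.85), Rhoq (0.85) and Ttbk2 (0.84) for Igf1, and Golga4 (0.71), Hps5 (0.68) and Snx1 (0.66) for Igf1r. For Igf2r they were Six5 (0.79), Tulp3 (0.79) and Lpin1 (0.77), and for Igfbp3 Gpc3 (0.75), Nnat (0.75) and Col23a1 (0.74). For Igfbp6 they were Ece1 (0.81), Impdh1 (0.80) and Stard10 (0.80), and for Igfbp7 Lsr (0.86), Slc12a7 (0.85) and Ifitm2 (0.85). Of the 50 genes most like Igfbp7, 2 were endothelial markers, and of the 50 most like Igf1, none was in a marker or pathway list. The libraries share depth and composition, so these values are descriptions.

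Of 22 further genes of the IGF system (other ligands, binding proteins, their proteases and inhibitors), 19 were tested; Igfbp1, Igfals and Igf2bp1 did not pass the filter. With vehicle 0 of the 19 were called between genotypes, where 13.1% of all genes were called. With NAVI 2 were lower in 3xTg and 0 higher, where 5.98% of all genes were called: Insr, the insulin receptor, at -0.39 (SE 0.08, adjusted p = 0.00325), and Stc1, a stanniocalcin of the family that inhibits PAPP-A, at -0.70 (SE 0.15, adjusted p = 0.00694). Pappa, the protease that cleaves Igfbp4, was among the tested genes not called in any comparison.

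Of 44 genes of insulin and IGF signalling, all tested, 1 was higher and 4 were lower in 3xTg with vehicle, 5 in all, no larger a share than the 13.1% of all genes called. Rictor, a subunit of mTOR complex 2, was higher by 0.23 (SE 0.07, adjusted p = 0.0313). Gsk3a, a kinase inhibited by AKT, was lower by a log2 change of -0.24 (adjusted p = 0.00632), Mapk3 (ERK1) of -0.28 (adjusted p = 0.0119), the GTPase Hras of -0.31 (adjusted p = 0.0160) and the adaptor Grb2 of -0.13 (adjusted p = 0.0416). The median log2 fold change of the 44 genes was 0.010, that of all tested genes 0.006. With NAVI 1 of the 44 was called higher and 1 lower in 3xTg, no larger a share than the 5.98% of all genes called. Tsc2, an inhibitor of mTOR complex 1, was higher at 0.31 (adjusted p = 0.0428, edgeR). Pik3r3, a regulatory subunit of PI3K, was lower at -0.38 (adjusted p = 0.00911, edgeR). The NAVI effect differed between genotypes for 4 of the 44: Rptor (0.56), Akt1 (0.62) and Mapk3 (0.41) had a higher effect in 3xTg and Pik3r3 (-0.47) a lower one, with adjusted p from 0.0427 to 0.0444 (edgeR). In that comparison 8.13% of all genes were called, close to the share of this list, and 0 genes with the GC slope as a covariate.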

How the data were processed

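Poly(A) RNA of 28 hippocampal libraries was sequenced with a stranded kit, per the labels' protocols. The deposited table, made by the authors, holds counts of reads per gene that are not normalized. The submitters' processing notes name STAR, Subread, featureCounts and mm10; versions, annotation and strand setting: not given in the sources used here. Columns were matched to libraries by their names.

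Counts were tested with edgeR 4.0.16 (R 4.3.3): TMM scaling, filterByExpr by group, and a quasi-likelihood test in 1 fit of all 7 groups, with Benjamini-Hochberg adjustment over 16369 genes and a call at an adjusted p under 0.05. DESeq2 1.42.0, limma-voom with sample quality weights (limma 3.58.1), other filters and scalings, marker-score covariates and leaving out each library were alternatives. The code was tested on simulated counts. Levels are CPM with TMM; log2 CPM used a prior count of 2. Transcript length and GC content came from GENCODE M21 for mm10. All 10 members were named; of the pathway lists, those called, up to 8 per comparison; and the 3 genes most like each member by Pearson r. The members and lists were chosen with earlier results of these data known. Every member had 150 reads or more in every library. Libraries of a group, compared in pairs over the tested genes, differed by more than counting noise. Their lowest chi-square per degree of freedom was 12.3.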

Additional observations from a re-analysis of the deposited data

Results flagged for a closer look

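Within groups of 4, a library was singled out where its gap to the nearest other library took up more of the group's range than Dixon's critical value for 4 values. Of 70 groups of values examined, 3 held such a library, and chance gives about 1 in 20. Igfbp5 in 3xTg VehN replicate 3 was 299.0 CPM, with the other libraries of the group between 357 and 367 CPM. Igfbp5 in WT Veh replicate 4 was 237.1 CPM, with the others between 268 and 274 CPM. Igfbp6 in 3xTg VehD replicate 2 was 4.205 CPM, with the others between 4.93 and 5.03 CPM.

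The effect of NAVI on Igf1 differed between 3xTg and WT by -0.626 on the log2 scale in the edgeR test of the difference itself (adjusted p = 0.0427). It did not keep its call under 12 of 28 alternatives.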

How the results depend on the processing

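The number of IGF genes called in a comparison did not depend on most settings, and no log2 fold change with an unadjusted p under 0.05 changed sign. For 3xTg over WT with vehicle, 2 genes, Igfbp4 and Igfbp5, were called with VehD alone, and 2 to 4 when single libraries were left out. There were 3 by limma-voom, 3 over all groups, and 3 with the GC slope as a covariate (Igf2r, Igfbp4 and Igfbp5). With the marker-score covariates 5 were called, Igfbp7 being added, and also 5 without the libraries of high thalamus score. The adjusted p of Igfbp4 reached at most 0.0149 and that of Igfbp5 at most 0.0326, in edgeR, DESeq2 or limma-voom. For 3xTg over WT with NAVI, 0 were called with only the libraries compared, and 0 to 1 with single libraries left out; with DQ, 1 was called by limma-voom. For NAVI in 3xTg, 1 gene, Igf1, was called with DESeq2, with the replicate block and against both vehicle groups, and 0 to 1 with single libraries left out. For the NAVI effect by genotype, 0 were called without the low count filter, with only the libraries compared and with the GC slope as a covariate, and 0 to 1 with single libraries left out. The cause of these differences was not tested. Over all genes NAVI in 3xTg gave 0 calls by edgeR, 2000 by DESeq2 and 826 by limma-voom, and the NAVI effect by genotype gave 1331 calls and 0 with the GC slope as a covariate. Libraries share replicate numbers, but the labels do not pair them: deviations of same-numbered libraries correlated between -0.40 and 0.46 (median 0.02, 84 pairs), and with the replicate block the Igf1 change by NAVI in 3xTg was -0.33 (adjusted p = 0.0329). Read counts were lowest for Igfbp6, with 150 reads in its lowest library. The settings with the GC slope, without the libraries of high thalamus score and over all groups were chosen after seeing the data.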
